A study of Sus scrofa with 36 samples.

Results

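Clone 2 and clone 3, 2 undifferentiated lines of induced pluripotent stem cells (iPSCs) from the pig (Sus scrofa), were compared across all genes by bulk RNA-seq. The comparison took the columns of the estimated-count table that carry the names of these lines, which gave 4 libraries of clone 2 and 4 of clone 3, 8 of 36 libraries in all. The other libraries held fibroblasts, further iPSC lines and cells differentiated from one of them. The title of the study calls its pig iPSCs transgene-free. Both lines carry the derivation label PiPS-EP5 with the additions minusPD and minusA83, and differ in the codes that follow, c12 p10 for clone 2 and c18 p15 for clone 3. The labels do not say what these codes stand for, and the shared label does not state that the lines came from the same cells. Each line is 1 clone, so a difference between them is a difference between 2 clones at the labelled codes and cannot be assigned to either code. No label says that the 4 libraries of a line came from separate cultures, so the spread between them may be technical. The p-values of the main fit rest on the spread within groups over 15 libraries, those of fibroblasts and clones 1 to 3. They do not measure the spread of these 2 lines alone.

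Reprogramming returns a differentiated cell to a state like that of the early embryo, held by transcription factors such as POU5F1, SOX2 and NANOG. A clonal line grows from 1 colony. Lines that share this core program can still differ in genes silenced during reprogramming, in chromosome content, in signals that act on the colony and in the share of cells that have begun to differentiate. In bulk RNA, fewer cells of a type and less RNA per cell cannot be told apart.

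The libraries of clone 2 held 28432053 to 69879325 estimated counts and those of clone 3 held 30621959 to 38055895. Between 11789 and 11930 genes exceeded 1 TPM, a level corrected for gene length, in clone 2, and 11379 to 11581 in clone 3. The 20 most abundant genes took 12.4% to 13.7% of all TPM in clone 2 and 14.1% to 15.98% in clone 3. Spearman's rho across genes was 0.985 to 0.991 between libraries of clone 2, 0.979 to 0.996 between libraries of clone 3 and 0.959 to 0.979 between the lines. The first principal component held 56.2% of the variance and separated the lines. Replicate 4 of each line lay nearest the other line on it, at -17.4 for clone 2 and 14.1 for clone 3. Clone 3 replicates 2 and 3 were much closer to each other than any other pair, with a chi-square per degree of freedom of 4.998 against 44.6 to 66.8 for the other clone 3 pairs. They differed by more than sampling noise and were counted as separate libraries, and results are also given with their counts summed to 1 library.

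**Figure D1:**
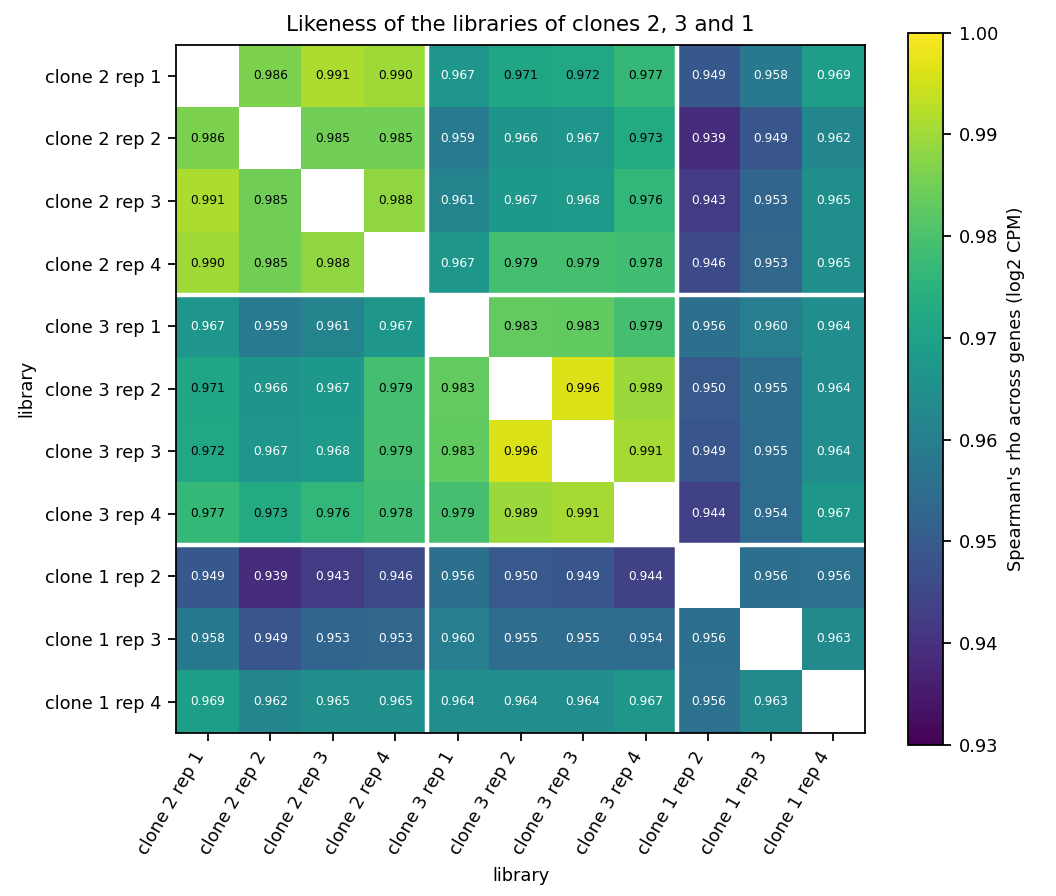
Spearman's rho of log2 CPM across genes for each pair of libraries of clones 2, 3 and 1, with library names on both axes and rho as colour and number. Pairs within clone 2 or within clone 3 reach at least 0.979, pairs between these lines lie between 0.959 and 0.979, and clone 3 replicates 2 and 3 stand out at 0.996.

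Of 14660 genes tested, 618 (4.22%) differed between the lines at an adjusted p under 0.05 in edgeR's quasi-likelihood test. In clone 2, 302 genes (2.06%) were higher and 316 (2.16%) lower, with a median log2 fold change of 0.01 over all genes tested. The TPM of the 2 lines did not overlap for 582 of the 618, beside 22.8% of all genes tested (17.7% with clone 2 higher and 5.1% with clone 2 lower). The larger changes were mostly toward higher levels in clone 2. At least 2-fold differences numbered 194 higher and 86 lower, together 1.91% of genes tested, and at least 4-fold differences 55 higher and 34 lower. The count of 618 varied with the fit. It was 2561 in a fit of these 8 libraries alone, 1429 in the fit of clones 1 to 3 and 1243 by DESeq2. It fell to 355 with clone 3 replicates 2 and 3 summed, and to 388, 401 and 330 without clone 2 replicate 1, 2 or 3 and to 357 and 351 without clone 3 replicate 2 or 3. Of the genes named below, 24 passed but did not pass with clone 3 replicates 2 and 3 summed. Those not marked as such where they are described were EGR2, IER3, LAMB3, COL3A1, SLC3A1, GPT2, SLC1A4, ALDH1L2, INSIG1, MYBL2, BCL2L1, FLRT3, DDX58, NCL, ACTB, GOLM1 and PSMG1. On the TPM scale the median of all genes moved to 0.13 (log2(TPM + 1)) or 0.18 (log2(TPM + 0.1)) and the split to 846 higher and 206 lower, or 602 and 144, by limma. The fold changes below are those of edgeR, whose scaling sets the median near 0.

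**Figure D2:**
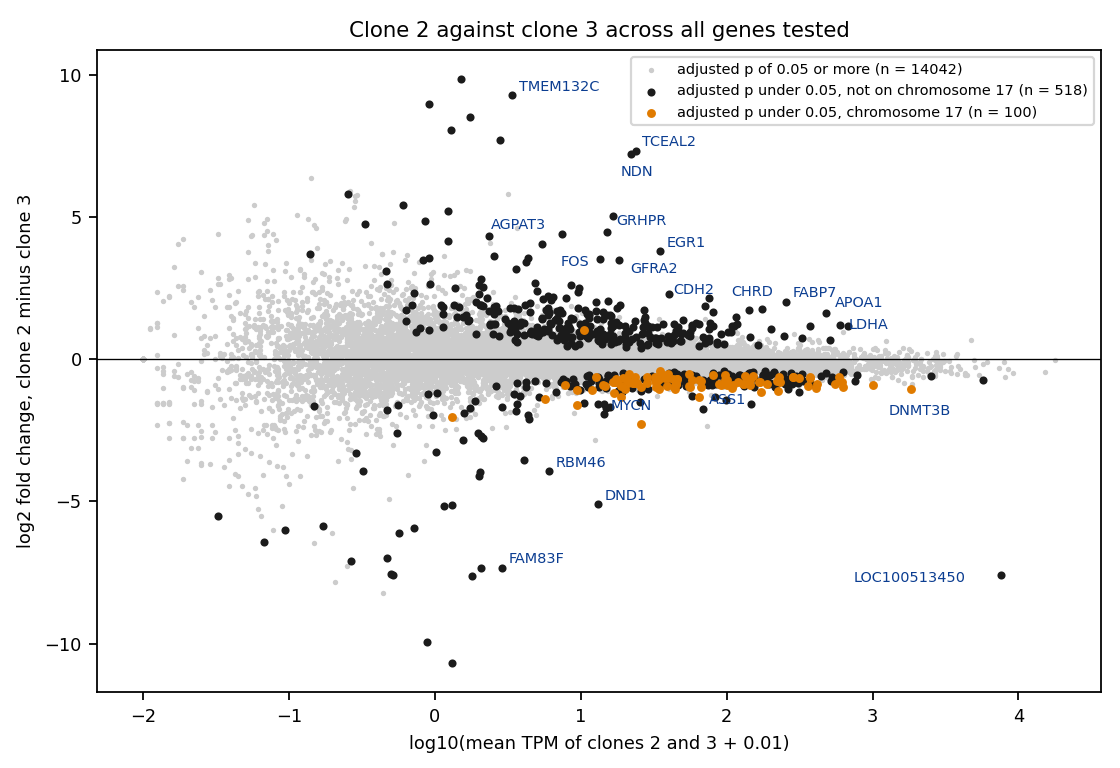
Log2 fold change between clone 2 and clone 3 (y axis, positive where clone 2 is higher) against log10 of the mean TPM of both lines plus 0.01 (x axis), 1 point per gene tested. Genes past the test are black, or orange on chromosome 17, where 99 of 100 lie below 0, and LOC100513450 sits alone at the lower right.

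Both lines expressed the genes that define the pluripotent label. POU5F1, the central transcription factor of the state, had 746, 774, 762 and 755.5 TPM in clone 2 and 941, 853, 806 and 781 TPM in clone 3. All clone 3 values lay above those of clone 2, but the difference did not pass the test (log2 fold change -0.35 ± 0.17, adjusted p = 0.312; 0.0283 in the fit of these 8 libraries alone). NANOG, its partner factor, had 107 ± 12.4 (SD, n = 4) and 106 ± 17.6 TPM in clone 2 and clone 3, and SOX2 had 122 ± 19.1 and 97.2 ± 15.2 TPM. The RNA-binding protein LIN28A had 1324 ± 113 and 1325 ± 61.9 TPM, and the epithelial cadherin CDH1 had 1392 ± 191 and 1280 ± 145 TPM. None of these 4 passed (adjusted p from 0.83 to 0.951), and the sign of NANOG and CDH1 turned on the TPM scale. The factor KLF4 had 4.63 ± 0.80 and 2.38 ± 0.90 TPM (adjusted p = 0.284). The mesenchymal genes VIM and THY1, at 3211 and 400 TPM in the fibroblasts, had 297 ± 28.2 and 5.05 ± 0.91 TPM in clone 2 and 309 ± 19.8 and 5.38 ± 1.02 TPM in clone 3, again without passing.

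Within the wider state lists, single regulators differed, beside 2.06% higher and 2.16% lower over all genes tested. Of 15 tested members of the core pluripotency list 1 was higher and 1 lower in clone 2 (median -0.16), of 11 naive-associated genes 1 was higher and 1 lower (median 0.40), and of 12 primed-associated genes 1 was lower (median -0.27). PRDM14, a repressor that guards naive pluripotency in the mouse, had 60.8, 59.7, 65.0 and 58.3 TPM in clone 2 and 30.1, 36.6, 32.4 and 37.7 TPM in clone 3. The groups did not overlap (log2 fold change 0.65 ± 0.14, adjusted p = 0.0132). DNMT3B, a methyltransferase that sets new DNA methylation, had 1309, 1196, 1436 and 1275 TPM in clone 2 against 2129, 2266, 2305 and 2697 TPM in clone 3, with a log2 fold change of -1.03 ± 0.14 (adjusted p = 0.000323). It was the only 1 of 15 DNA methylation genes past the test, and it lies on chromosome 17, treated below. TFAP2C, a factor of trophectoderm and naive cells that is also on chromosome 17, fell from 22.7 ± 2.26 TPM in clone 3 to 11.22 ± 1.45 TPM in clone 2 (adjusted p = 0.0121). Clone 1 had 21.1 to 26.4 TPM of TFAP2C, near clone 3. SOX11, a factor of primed and neural cells, fell from 54.6 ± 8.06 TPM in clone 3 to 35.0 ± 6.36 TPM in clone 2 (adjusted p = 0.0177). The calls of PRDM14 without clone 2 or clone 3 replicate 3 (adjusted p up to 0.0602), of TFAP2C without clone 2 replicate 2 or 3 (up to 0.0575) and of SOX11 without clone 2 replicates 1, 3 or 4 or clone 3 replicates 1 or 4 (up to 0.0705) were lost. Of 26 Polycomb genes none was higher in clone 2 and 2 were lower, the PRC2 cofactor JARID2 (67.9 ± 4.88 against 95.1 ± 5.70 TPM, adjusted p = 0.0152) and the histone chaperone RBBP7 (154 ± 11.7 against 227 ± 24.6 TPM, adjusted p = 0.00484). The JARID2 call was lost without clone 2 replicate 3 or 4, with an adjusted p of up to 0.0524.

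A few genes were at or near 0 in every library of one line and clearly measured in the other. With a ceiling of 0.5 TPM in each library of one line and a minimum of 5 TPM in each of the other, NDN and TMEM132C were near 0 in clone 3 (0.00967% of genes) and FAM83F near 0 in clone 2 (0.00483%). NDN (chromosome 1, 142412688 to 142413665 on Sscrofa11.1) encodes necdin and is expressed from the paternal copy in human and mouse. It had 48.6, 37.9, 48.5 and 41.8 TPM in clone 2 and 0.06, 0.27, 0.33 and 0.34 TPM in clone 3, a log2 fold change of 7.24 ± 0.64 (adjusted p = 2.36e-06). Clone 1, a line with the other derivation label EP1, had 83.3, 45.6 and 29.5 TPM, on the side of clone 2, as did the shallower undifferentiated day 0 libraries of a further line, clone 8, with 50.6 ± 3.84 TPM (n = 3). TMEM132C, a membrane protein gene on chromosome 14, had 6.41, 6.82, 7.82 and 6.02 TPM in clone 2 and at most 0.02 TPM in any clone 3 library (adjusted p = 3.85e-06). Clone 1 had 0.35 to 0.87 TPM of it, near clone 3, and clone 8 had 7.04 ± 0.67 TPM, near clone 2. FAM83F on chromosome 5 had 5.89, 5.18, 5.82 and 5.90 TPM in clone 3 and at most 0.09 TPM in clone 2 (adjusted p = 3.02e-08). Clone 1 had 10.7 to 17.7 TPM of it, and clone 8 had 4.55 ± 0.24 TPM, both above clone 2.

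Other genes came close to this pattern. TCEAL2, an X-linked gene of the transcription elongation factor family, had 52.4, 20.9, 42.7 and 73.7 TPM in clone 2 and 0, 0.96, 0.02 and 0.13 TPM in clone 3. GRHPR, which reduces glyoxylate and hydroxypyruvate, had 29.9, 26.9, 31.9 and 28.8 TPM in clone 2 and 1.96, 1.17, 1.02 and 0.36 TPM in clone 3. AGPAT3, an acyltransferase of phospholipid synthesis, had 15.9, 10.7, 17.02 and 13.7 TPM against 1.03, 0.36, 0.80 and 0.42 TPM. In all 3 the lines did not overlap, though TCEAL2 varied widely within clone 2. The log2 fold changes were 7.35 ± 0.74, 4.49 ± 0.39 and 4.43 ± 0.35 (adjusted p = 8.45e-06, 2.02e-06 and 8.9e-07). The fibroblasts held 44.5 TPM of GRHPR and 79.3 TPM of AGPAT3 but 0.02 TPM of TCEAL2. IRS2, an adaptor of the insulin receptor chosen after its values were seen, had 7.16, 5.94, 5.57 and 3.72 TPM in clone 2 and at most 0.05 TPM in clone 3 (adjusted p = 6.37e-08). GFRA2, a coreceptor for neurturin, had 33.7 ± 7.59 against 2.87 ± 0.76 TPM, and the cell adhesion gene CADM1 127 ± 26.0 against 24.7 ± 8.25 TPM. HTATIP2 had 68.5 ± 5.25 against 12.3 ± 0.35 TPM (log2 fold change 2.31 ± 0.16, adjusted p = 9.69e-08). NDN was 1 of 2 of 25 imprinted genes tested that differed, beside 4.22% of all genes tested. The other was IMPACT, a regulator of translation that is imprinted in the mouse, with 28.7 ± 1.45 TPM in clone 2 and 44.9 ± 4.01 TPM in clone 3 (adjusted p = 0.00653, but 0.0563 by limma on log2(TPM + 1)). The median over the imprinted list was 0.01. MAGEL2, also on chromosome 1, had 1.87 ± 0.36 against 2.17 ± 0.48 TPM, and SNRPN had 238 ± 13.1 against 255 ± 12.6 TPM. SNURF was higher in clone 2 but varied widely, at 106 ± 42.8 against 36.0 ± 32.9 TPM. None of these 3 passed in edgeR (adjusted p = 0.814, 0.775 and 0.547).

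The largest difference in level belonged to LOC100513450, a RefSeq protein-coding gene without a given name on chromosome X (43489559 to 43496654), between a pseudogene and USP27X. It had 77.0, 94.6, 70.8 and 110 TPM in clone 2 and 13049, 17459, 16798 and 12774 TPM in clone 3. The log2 fold change was -7.59 ± 0.33 (adjusted p = 3.95e-10). It took 1.28% to 1.75% of all TPM in clone 3 and at most 0.011% in clone 2. Clone 1 and clone 8 lay between the lines with 1156 to 1249 and 7287 ± 722 TPM, and the fibroblasts had 2.84 TPM. Reads shared with near-identical copies could not be separated in the deposited values, so the level of this gene is uncertain.

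Of 38 listed germline and meiosis genes 14 were tested, 3 of these were lower in clone 2 and none higher, beside 2.16% lower over all genes tested, with a median of -0.23. DND1 (chromosome 2, 142384526 to 142387407), an RNA-binding protein that primordial germ cells of the mouse need to survive, had 0.57, 0.77, 1.01 and 1.01 TPM in clone 2 and 23.8, 26.4, 28.3 and 23.1 TPM in clone 3. RBM46, an RNA-binding protein needed for meiosis in the mouse, had 1.21, 0.78, 0.47 and 0.89 TPM against 9.47, 11.4, 12.3 and 12.2 TPM. Neither gene overlapped between the lines, with log2 fold changes of -5.10 ± 0.44 and -3.93 ± 0.37 (adjusted p = 2.15e-06 and 3.85e-06). TDRD12, a factor of the piRNA pathway that silences transposons in the mouse germline, had 6.65 ± 1.31 and 12.1 ± 0.94 TPM (adjusted p = 0.0344). Its call was lost without each of the 8 libraries in turn (adjusted p from 0.0528 to 0.119) and with clone 3 replicates 2 and 3 summed (0.0981). Clone 1 held 17.1 to 41.5 TPM of DND1, and 3.32 to 7.26 TPM of RBM46, between the lines. Clone 8 had 11.3 ± 1.03 TPM of DND1 (n = 3), while RBM46 was listed at 0 in it.

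**Figure D3:**
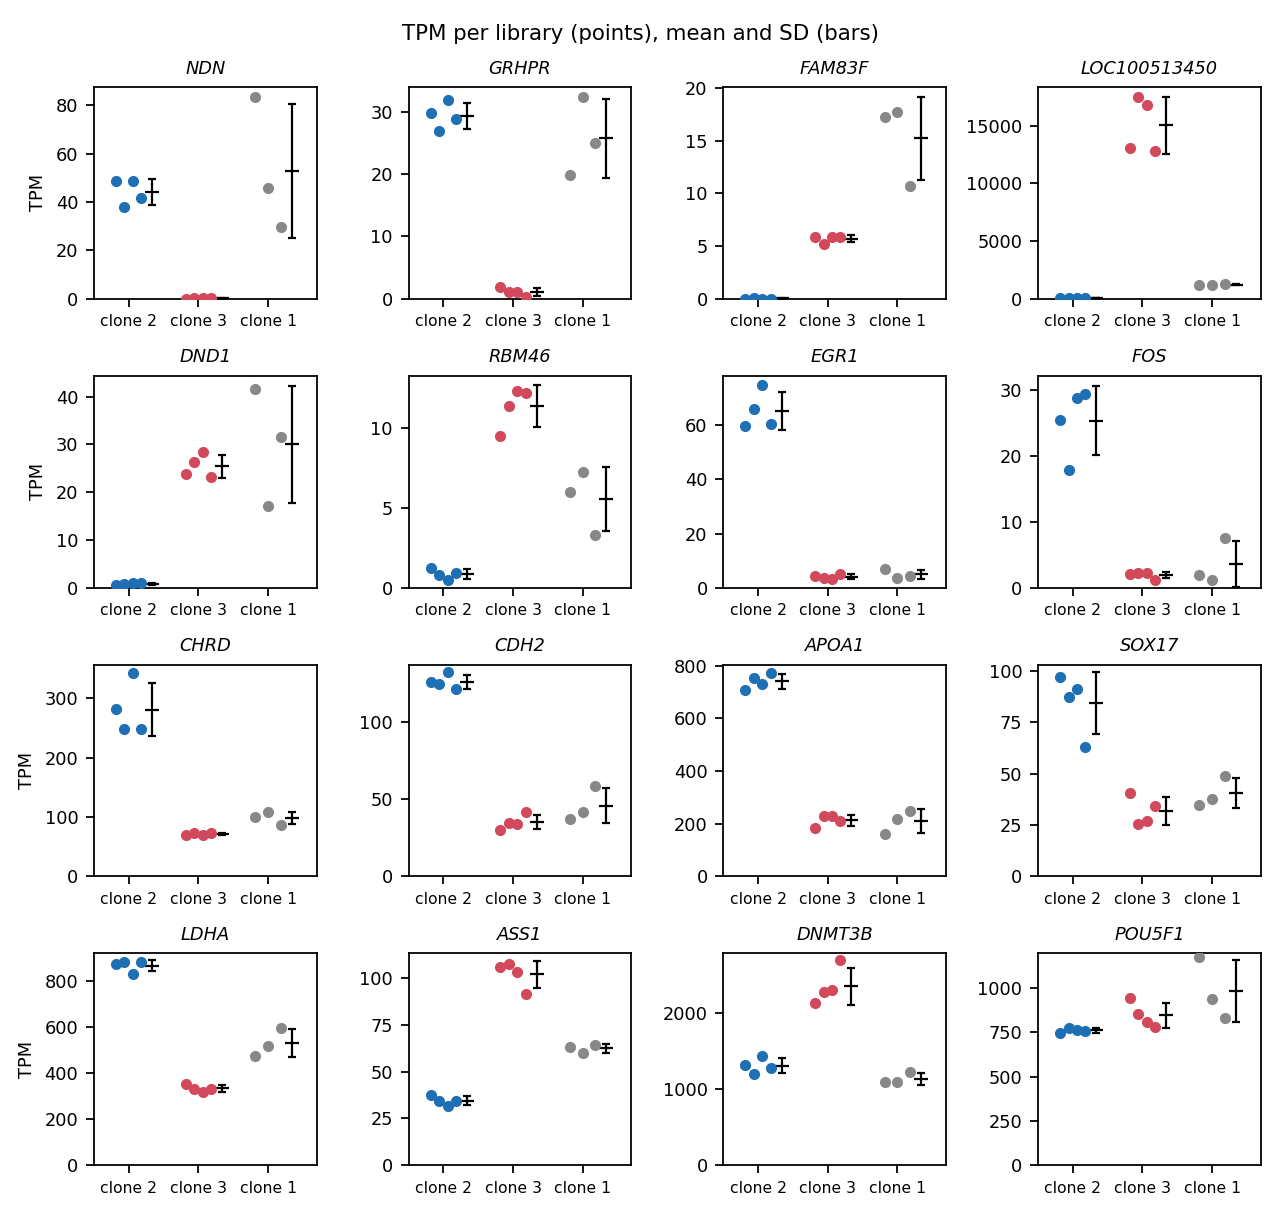
TPM (y axis) of 16 genes in each library of clone 2, clone 3 and clone 1 (points), with the mean and SD as bars. Of these 3 lines, NDN and GRHPR are lowest in clone 3, FAM83F, DND1 and RBM46 are lowest in clone 2, EGR1 and FOS are higher in clone 2 than in clones 3 and 1, and POU5F1 did not pass the test.

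Immediate early genes are switched on within minutes by growth factors, serum and handling. Of 26 tested, 4 were higher and 1 lower in clone 2, beside 2.06% and 2.16% of all genes tested, with a median of 0.45. EGR1 (chromosome 2, 140440829 to 140445302) had 59.6, 66.1, 74.7 and 60.6 TPM in clone 2 and 4.47, 3.56, 3.26 and 5.16 TPM in clone 3. FOS, a subunit of the AP-1 factor, had 25.5, 17.8, 28.7 and 29.3 TPM against 2.09, 2.16, 2.25 and 1.15 TPM. Both were separated without overlap, at log2 fold changes of 3.81 ± 0.26 and 3.53 ± 0.51 (adjusted p = 9.69e-08 and 0.000472). Clone 1 had 3.65 to 6.81 TPM of EGR1 and 1.14 to 7.55 TPM of FOS, near clone 3. Clone 8 had 37.8 ± 3.23 and 37.1 ± 4.0 TPM (n = 3), nearer clone 2 for both. EGR2 had 2.43 ± 0.88 against 0.69 ± 0.25 TPM and IER3, an early response gene linked to survival, 10.6 ± 0.63 against 5.37 ± 1.14 TPM (adjusted p = 0.0279 and 0.0277, and 0.0689 for IER3 in the fit of clones 1 to 3). SRF, the serum response factor that binds the promoters of such genes, was the 1 member lower in clone 2, at 41.3 ± 6.17 against 63.0 ± 7.83 TPM (adjusted p = 0.0231). EGR2, IER3 and SRF each lost the call without all libraries but clone 2 replicate 2 and, in this order, clone 3 replicate 2, 4 and 3, with adjusted p of up to 0.112 (EGR2, without clone 3 replicate 3), 0.115 (IER3, without clone 3 replicate 2) and 0.0767 (SRF, without clone 3 replicate 1). Of 16 feedback genes of the ERK pathway, such as DUSP and SPRY genes, 0 passed in the main fit (median 0.02), with 5 at an unadjusted p under 0.05, 1 past DESeq2 and 0 past limma. In the fit of the 8 libraries 4 were higher and 2 lower, beside 2561 of 13672 genes past that fit. In the fit of clones 1 to 3, the numbers were 3 higher and 2 lower. The labels give no time from handling to lysis, and its part in the immediate early result was not tested.

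Lists of embryonic signalling pathways held a few genes past the test, beside 2.06% higher and 2.16% lower over all genes tested. In the BMP list 2 of 21 tested genes were higher in clone 2 (median 0.53), in the nodal and activin list 2 of 24 (median 0.01), in the Wnt list 3 of 34 (median 0.26), among FGF ligands and receptors 2 of 18 (median 0.17) and in the Notch list 2 of 17 (median -0.01). No member of these 5 lists was lower in clone 2 at this threshold. DESeq2 called 1 nodal and activin gene and 2 Notch genes lower, and the fit of the 8 libraries 1 FGF, 1 nodal and activin, 1 Wnt and 2 Notch genes. CHRD encodes chordin, a secreted BMP antagonist. It had 281, 248, 343 and 249 TPM in clone 2 and 70.1, 72.3, 70.04 and 73.9 TPM in clone 3, without overlap (log2 fold change 1.78 ± 0.14, adjusted p = 6.54e-07). GREM1, a further BMP antagonist, had 3.13 ± 0.58 against 0.68 ± 0.33 TPM (adjusted p = 0.0367). FST encodes follistatin, which binds activin, and had 306, 394, 311 and 316 TPM against 166, 170, 166 and 149 TPM (log2 fold change 0.84 ± 0.13, adjusted p = 0.000723). SMAD3, which carries the activin and nodal signal to the nucleus, had 22.9 ± 2.46 against 9.48 ± 2.12 TPM (adjusted p = 0.00221). Clone 1 lay near clone 3 for CHRD (86.8 to 108 TPM) and between the lines for FST (233 to 268 TPM).

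Among the receptors, FGFR1 had 90.1 ± 9.13 against 52.6 ± 3.29 TPM (adjusted p = 0.0165) and NOTCH2 14.8 ± 2.01 against 7.79 ± 0.40 TPM (adjusted p = 0.00329). LGR5 and LGR4, receptors that strengthen Wnt signals, had 4.08 ± 1.23 against 1.04 ± 0.39 TPM and 19.4 ± 4.09 against 9.52 ± 3.19 TPM. The ligand WNT5A was low in both, at 1.27 ± 0.19 against 0.53 ± 0.11 TPM, and FGF13, an intracellular member of the FGF family, had 9.06 ± 1.42 against 3.31 ± 0.90 TPM. LFNG, a glycosyltransferase that tunes Notch, had 13.4 ± 3.04 against 6.04 ± 1.40 TPM. CYP26A1, the enzyme that degrades retinoic acid, was chosen after its values were seen. It had 215, 214, 235 and 237 TPM in clone 2 against 61.1, 57.4, 62.4 and 58.4 TPM in clone 3 (log2 fold change 1.75 ± 0.12, adjusted p = 1.4e-06), and clone 1 had 47.8 to 49.4 TPM and clone 8 137 ± 8.05 TPM. Several of these signalling calls did not survive the loss of 1 library. GREM1 lost its call without each of the 8 (adjusted p up to 0.114), LGR5 without all but clone 2 replicate 2 (up to 0.106), LGR4 without all but clone 2 replicate 2 and clone 3 replicate 4 (up to 0.145) and LFNG without all but clone 2 replicate 4 and clone 3 replicate 1 (up to 0.117). FGF13 lost it without clone 2 replicates 1, 2 or 3 or clone 3 replicates 1 or 2 (up to 0.101), FGFR1 without replicate 3 of either line (up to 0.0708) and WNT5A without clone 2 replicate 3 or clone 3 replicate 1 (up to 0.0552). With clone 3 replicates 2 and 3 summed, GREM1 (0.0771), LGR5 (0.0862), LGR4 (0.13), LFNG (0.115) and FGF13 (0.0635) no longer passed. WNT5A and GREM1 had adjusted p of 0.0936 and 0.0578 in the fit of clones 1 to 3 without fibroblasts, and WNT5A 0.153 by limma on log2(TPM + 1).

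Of 33 integrin, laminin and basement membrane genes 8 were higher and none lower, beside 2.06% of all genes tested that were higher, and the median of the list was 0.37. ITGAV, an integrin subunit that binds fibronectin and vitronectin, had 143, 154, 150 and 108 TPM in clone 2 and 75.6, 55.4, 56.5 and 78.1 TPM in clone 3. ITGA6, a laminin-binding subunit chosen after its values were seen, had 127, 129, 145 and 95.1 TPM against 56.7, 53.9, 53.4 and 70.6 TPM. Neither overlapped, and replicate 4 of each line lay closest to the other line in both genes (log2 fold changes 0.97 ± 0.21 and 0.90 ± 0.16, adjusted p = 0.0118 and 0.00251). LAMA1, a laminin chain of early basement membranes, had 9.07 ± 0.25 against 3.41 ± 0.14 TPM (log2 fold change 1.23 ± 0.21, adjusted p = 0.00188). LAMB3, an epithelial laminin chain, had 3.79 ± 1.59 against 0.74 ± 0.40 TPM (adjusted p = 0.0283), and ITGA8 had 4.51 ± 0.61 against 2.05 ± 0.13 TPM (adjusted p = 0.000575). NID1, a linker of basement membranes also chosen after its values were seen, had 53 ± 7.80 against 26.1 ± 2.93 TPM (adjusted p = 0.00431). ITGAV lost the call without clone 3 replicate 2 or 3 (adjusted p up to 0.0557) and with these summed (0.0563), and LAMB3 without all but clone 2 replicate 2 and clone 3 replicate 1 (up to 0.116). Among 34 junction and keratin genes 1 was higher and none lower (median 0.06). It was CDH2, or N-cadherin, with 126, 125, 132 and 122 TPM in clone 2 and 30.4, 34.8, 33.99 and 41.8 TPM in clone 3, a log2 fold change of 1.67 ± 0.14 (adjusted p = 1.16e-06). Clone 1 had 37.0 to 59.0 TPM of CDH2, nearer clone 3, and clone 8 had 85.2 ± 13.3 TPM. NCAM1, an adhesion protein of neural cells and the 1 of 15 neural genes past the test, had 6.72 ± 1.62 against 1.59 ± 0.80 TPM (adjusted p = 0.0187, and up to 0.068 without replicate 3 of either line).

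**Figure D4:**
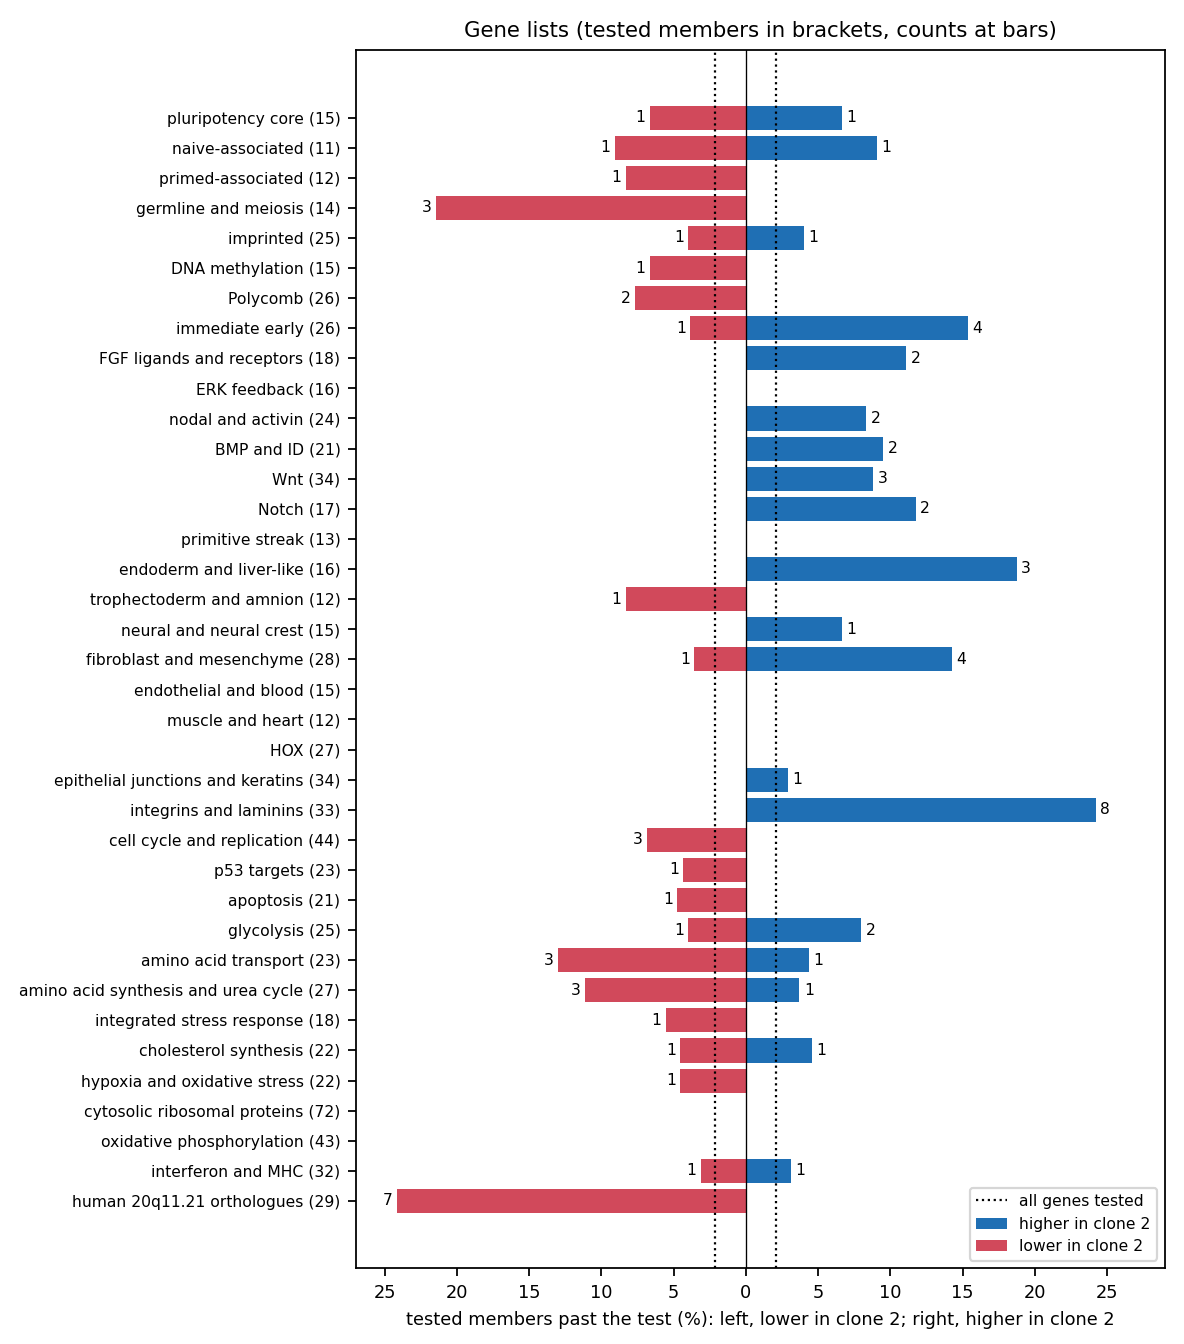
Share of tested members of each gene list past the test (x axis, %), with those lower in clone 2 to the left and higher to the right, counts at the bars and tested members in brackets. Dotted lines mark the shares of all genes tested, 2.16% lower and 2.06% higher. Integrins and laminins reach 8 of 33 on the right, and the longest bars on the left are germline genes (3 of 14) and the orthologues of human 20q11.21 (7 of 29), all 7 on chromosome 17.

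Genes of differentiated cells were looked at as lists, together with markers of other cell types. Of 16 endoderm and liver-like genes tested 3 were higher in clone 2, beside 2.06% of all genes tested, and none lower (median 0.69). APOA1, the main protein of high-density lipoprotein, had 706, 753, 731 and 774 TPM in clone 2 against 185, 229, 228 and 209 TPM in clone 3. SOX17, a factor of endoderm and of germ cell precursors, had 96.8, 87.1, 91.01 and 62.9 TPM against 40.5, 25.6, 26.8 and 34.3 TPM. The endoderm factor FOXA1 had 3.40, 3.36, 4.66 and 3.41 TPM against 0.65, 0.65, 0.47 and 0.46 TPM. All 3 were separated without overlap (log2 fold changes 1.62 ± 0.36, 1.22 ± 0.24 and 2.54 ± 0.38, adjusted p = 0.0129, 0.00572 and 0.000637). The summed level of the 5 endoderm markers was 100 to 132 TPM in clone 2 and 53.5 to 60.2 TPM in clone 3, with 1 of 5 past the test and none under 1 TPM in all 8 libraries. APOA1 lost its call without clone 3 replicate 1 (adjusted p = 0.0538).

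Of 28 fibroblast and mesenchyme genes 4 were higher and 1 lower in clone 2, although the median of the list was -0.26. Over all genes tested 2.06% were higher and 2.16% lower. The split varied with the fit. DESeq2 called 8 members, 3 of them lower, beside 1243 of 14660 genes past it. The fit of the 8 libraries called 12, 6 of them lower, beside 2561 of 13672 genes. Limma on log2(TPM + 1) called 3, with 0 lower, beside 1052 of 14660 genes. FN1, the matrix protein fibronectin, had 173 ± 7.93 against 63.4 ± 3.15 TPM (log2 fold change 1.26 ± 0.20, adjusted p = 0.000859). COL1A1 and COL5A1, collagen chains, had 190 ± 48.4 against 97.1 ± 1.89 TPM and 26.6 ± 5.73 against 13.5 ± 0.15 TPM (adjusted p = 0.00612 and 0.00527), with the lowest clone 2 value of both in replicate 2. COL3A1, a further collagen, was lower in clone 2, at 6.20 ± 0.39 against 10.6 ± 0.83 TPM (adjusted p = 0.0271, but up to 0.0891 without single libraries and not past the test without all but clone 3 replicate 4). The fibroblasts held 15263 TPM of FN1, 9634 of COL1A1 and 6862 of COL3A1. The summed level of 8 fibroblast markers was 168 to 282 TPM in clone 2 and 137 to 146 TPM in clone 3. It was 19821 to 37587 TPM in the fibroblasts. COL1A1 alone made up 127 to 236 TPM of the sum in clone 2 and 95.4 to 99.3 TPM in clone 3. Of the 8 markers 1 was higher and 1 lower in clone 2, and LUM and POSTN were under 1 TPM in all 8 iPSC libraries. The part of fibroblast-like cells in the collagen and integrin results was not tested. The markers of mesoderm and streak summed to 55.0 to 65.8 against 30.5 to 46.2 TPM, those of trophectoderm to 6.18 to 7.48 against 2.53 to 3.84 TPM, and those of endothelium and blood to 3.64 to 4.97 against 1.70 to 2.42 TPM, with no marker of these past the test. PAX6 and SOX1 of neural cells and MYOD1 of muscle were under 1 TPM in all 8 libraries.

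Metabolic genes past the test lay in both directions, beside 2.06% higher and 2.16% lower over all genes tested. Of 25 glycolytic genes 2 were higher and 1 lower in clone 2 (median 0.12). LDHA, the lactate dehydrogenase subunit, had 872, 883, 832 and 882 TPM in clone 2 and 354, 330, 318 and 331 TPM in clone 3, without overlap (log2 fold change 1.21 ± 0.11, adjusted p = 3.41e-06). The lactate exporter SLC16A3 had 5.73 ± 1.04 against 2.04 ± 0.45 TPM (adjusted p = 0.000861), while HK2, a hexokinase of the first glycolytic step, was lower at 4.58 ± 0.70 against 8.98 ± 1.16 TPM (adjusted p = 0.000867). Clone 1 had 476 to 597 TPM of LDHA, between the lines. FABP7, a fatty acid binding protein of neural progenitors, had 406, 436, 388 and 437 TPM in clone 2 and 98.5, 82.6, 91.6 and 88.2 TPM in clone 3 (log2 fold change 2.03 ± 0.15, adjusted p = 2.97e-07).

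In amino acid synthesis and the urea cycle 1 of 27 genes was higher and 3 were lower in clone 2 (median -0.07), and in amino acid transport 1 of 23 was higher and 3 lower (median -0.02). The shares over all genes tested were 2.06% higher and 2.16% lower. ASS1, the urea cycle enzyme that joins citrulline and aspartate, had 37.8, 34.3, 31.5 and 34.6 TPM in clone 2 against 106, 107, 103 and 91.7 TPM in clone 3 (log2 fold change -1.73 ± 0.17, adjusted p = 6.38e-06). PSAT1, an enzyme of serine synthesis, fell from 19.0 ± 3.58 TPM in clone 3 to 10.7 ± 0.92 TPM in clone 2 (adjusted p = 0.0015), and the glutamate transporter SLC1A3 from 24.8 ± 1.99 to 12.4 ± 0.65 TPM (adjusted p = 0.0019). SLC3A1, the heavy subunit of a cystine transporter, was higher in clone 2 at 11.18, 11.4, 10.6 and 7.95 TPM against 0.02, 0.66, 0.50 and 1.03 TPM (adjusted p = 0.0263). The remaining list members past the test were the aminotransferase GPT2 (adjusted p = 0.0443) and the transporters SLC1A4 (0.0376) and SLC7A1 (0.0189), all lower in clone 2, and the mitochondrial folate enzyme ALDH1L2 (0.04), which was higher. GPT2 and SLC1A4 lost the call without each of the 8 libraries (adjusted p up to 0.136 and 0.109), ALDH1L2 without all but clone 2 replicate 4 (up to 0.13), SLC3A1 without all but clone 2 replicate 4 and clone 3 replicate 4 (up to 0.0967) and SLC7A1 without clone 2 replicates 2, 3 or 4 or clone 3 replicates 1 or 3 (up to 0.0715).

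STC2, a secreted protein and the 1 of 18 integrated stress response genes past the test, had 0.26, 0, 0.95 and 1.23 TPM in clone 2 and 3.79, 4.01, 3.36 and 3.49 TPM in clone 3 (log2 fold change -2.77 ± 0.50, adjusted p = 0.00327, and 0.059 in the fit of clones 1 to 3). Of 22 cholesterol genes the carrier STARD4 was higher, at 7.20 ± 1.203 against 2.88 ± 1.34 TPM (adjusted p = 0.0064), and INSIG1, which holds the sterol sensor in the endoplasmic reticulum, was lower, at 41.8 ± 2.48 against 69.0 ± 10.2 TPM (adjusted p = 0.0208). Clone 3 replicate 4 was the highest of its line for both genes. INSIG1 lost its call without all but clone 2 replicate 4 and clone 3 replicate 1 (adjusted p up to 0.0745). These single calls stand beside 2.06% higher and 2.16% lower over all genes tested.

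Genes of chromosome 17 were lower in clone 2 along its whole length. Of 445 tested 99 were lower and 1 higher, with a median log2 fold change of -0.52, whereas the medians of the other 18 chromosomes, Y set aside, ranged from -0.07 to 0.10 and 0.615% to 3.24% of their genes were lower. On the log2(TPM + 1) and log2(TPM + 0.1) scales the chromosome 17 median was -0.26 and -0.32, beside 0.13 and 0.18 for all genes, and 49 genes were lower on the latter. Chromosome 17 held 31.3% of all genes lower in clone 2. Medians of windows of 10 Mb ranged from -0.61 to -0.37. Set against the mean of clone 2, the offset of the chromosome was 0.53 ± 0.01 in clone 3 (n = 4) and 0.02 ± 0.04 in clone 1 (n = 3), so that clone 3 was the line that stood apart. Of the 99 lower genes 72 had a clone 1 level nearer that of clone 2. With chromosome 17 set aside, 518 of 14215 genes (3.64%) differed, 301 higher (2.12%) and 217 lower (1.53%). The count of 99 was 64 without clone 2 replicate 2, 57 without clone 2 replicate 3, 63 without clone 3 replicate 1 and 65 without clone 3 replicate 3. The chromosome content itself was not measured. FLRT3, a membrane protein gene chosen after its values were seen, was the 1 gene higher in clone 2, at 14.7 ± 1.59 against 6.29 ± 2.33 TPM (adjusted p = 0.0411, up to 0.133 without clone 2 replicate 3 and past the test without clone 3 replicate 4 alone).

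**Figure D5:**
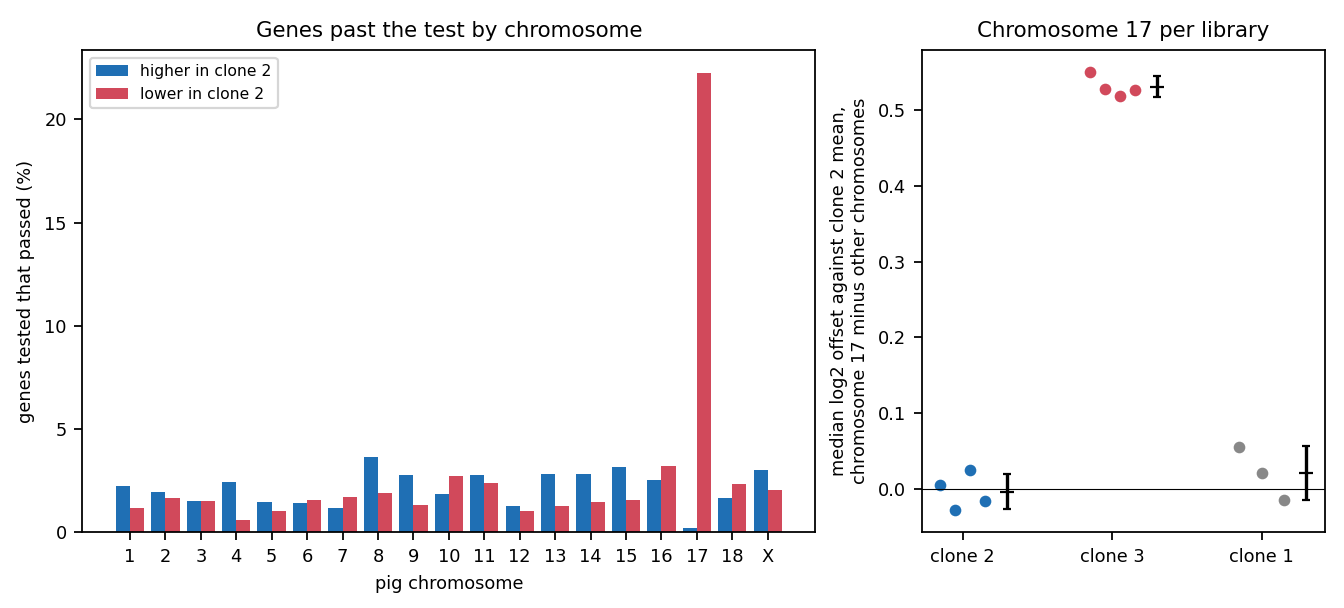
Left, share of tested genes on each pig chromosome (x axis) that were higher or lower in clone 2 (y axis, %). Right, median log2 offset of chromosome 17 from the mean of clone 2, less that of the other chromosomes, per library (points) with mean and SD (bars). Chromosome 17 has the tallest bar, for genes lower in clone 2, and the 4 clone 3 libraries lie near 0.53 while clones 2 and 1 lie near 0.

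Genes of growth and survival were followed both on and off this chromosome. Their counts stand beside 2.06% higher and 2.16% lower over all genes tested. Of 44 cell cycle and replication genes 3 were lower in clone 2 and none higher (median -0.11), of which PCNA and MYBL2 lie on chromosome 17. DESeq2 called 7 members lower, beside 639 of 14660 genes, and limma on log2(TPM + 1) 1, beside 206 of 14660. The fit of the 8 libraries called 9 lower and 2 higher, beside 1291 and 1270 of 13672 genes. PCNA, the sliding clamp of DNA polymerases, had 246, 281, 264 and 296 TPM in clone 2 and 332, 502, 492 and 496 TPM in clone 3, with clone 3 replicate 1 well below the rest of its line (log2 fold change -0.92 ± 0.20, adjusted p = 0.0118). MYBL2, a factor of cell cycle genes, had 185 ± 38.3 against 282 ± 5.46 TPM (adjusted p = 0.0397). MYCN, a growth-promoting factor on chromosome 3, had 6.15, 5, 8.49 and 6.66 TPM in clone 2 and 23.2, 19.1, 19.9 and 26.9 TPM in clone 3, without overlap (log2 fold change -1.94 ± 0.25, adjusted p = 0.000192). MDM2, the ubiquitin ligase of p53, was the 1 of 23 p53 targets past the test, at 96.3 ± 7.33 against 142 ± 18.2 TPM (adjusted p = 0.00204). BCL2L1, an inhibitor of apoptosis on chromosome 17, was the 1 of 21 apoptosis genes, at 96.1 ± 12.8 against 167 ± 19.95 TPM (adjusted p = 0.0246). Clone 1 had 131 to 205 TPM of BCL2L1, near clone 3, as for 27 of the 99 lower genes on chromosome 17. Of 29 tested orthologues of genes in human 20q11.21, a region often gained in human pluripotent lines, 7 were lower in clone 2 and none higher (median -0.52), beside 22.2% lower and the same median over all chromosome 17 genes tested, and all 7 lie on that chromosome. DNMT3B and BCL2L1 are among them, as are PDRG1 (31.7 ± 1.87 against 57.6 ± 5.24 TPM, adjusted p = 0.000134) and CHMP4B, a subunit of the membrane-cutting ESCRT machinery (144 ± 19.97 against 234 ± 5.54 TPM, adjusted p = 0.00136). DOK5, an adaptor of receptor kinases on the same chromosome, exceeded the offset, with 9.90 ± 1.70 TPM in clone 2, 42.0 ± 9.95 TPM in clone 3 and a log2 fold change of -2.28 ± 0.30 (adjusted p = 0.00054). BCL2L1 and MYBL2 lost the call without each of the 8 libraries (adjusted p up to 0.0901 and 0.138) and PCNA without clone 2 replicate 3 (0.0524).

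The abundant genes that differed most in TPM included further housekeeping functions. The translation initiation subunit EIF2S2 and the nucleolar protein NOP56, both on chromosome 17, had 760 ± 186 against 1252 ± 137 TPM and 461 ± 55.8 against 803 ± 127 TPM (adjusted p = 0.00507 and 0.00323). NCL, or nucleolin, had 5326, 3558, 4325 and 5460 TPM in clone 2 and 6481, 7568, 7366 and 5979 TPM in clone 3, and ACTB, the cytoskeletal actin, 2178 ± 263 against 2849 ± 98.0 TPM (adjusted p = 0.0319 and 0.0246). IGFBP2, which binds insulin-like growth factors, was higher in clone 2 at 535 ± 52.9 against 211 ± 6.00 TPM (adjusted p = 0.000941), as was the Golgi protein GOLM1 at 658 ± 94.99 against 358 ± 16.7 TPM (adjusted p = 0.0164). PSMG1, a proteasome assembly factor, had 1120, 1290, 1022 and 464 TPM in clone 2 and 344, 302, 291 and 587 TPM in clone 3 (adjusted p = 0.0421). Here replicate 4 of the lines crossed, the clone 2 library lying below that of clone 3. NCL, ACTB and PSMG1 lost the call without replicate 1, 2 or 3 of either line (adjusted p up to 0.122, 0.0893 and 0.149), and GOLM1 without clone 2 replicate 1 or 3 or clone 3 replicate 2 or 3 (up to 0.0676). B2M, the light chain of MHC class I, had 277, 355, 334 and 221 TPM against 101, 86.8, 86.3 and 164 TPM (log2 fold change 1.08 ± 0.22, adjusted p = 0.00871), again with replicate 4 of each line nearest the other. It was the 1 of 32 interferon and MHC genes higher in clone 2, beside 2.06% higher and 2.16% lower over all genes tested. The viral RNA sensor DDX58 was the 1 lower, and its TPM overlapped (9.33 ± 1.97 against 12.7 ± 1.63 TPM, adjusted p = 0.0278, up to 0.116 without clone 3 replicate 2, and lost also without clone 2 replicate 1 or 3 or clone 3 replicate 4).

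Other lists held no gene past the test in the main fit. For 72 cytosolic ribosomal protein genes the median was -0.16, with 9 at an unadjusted p under 0.05, 1 past DESeq2 and 0 past limma, and for 43 oxidative phosphorylation genes it was -0.14, with 4, 0 and 0. Ribosomal protein genes took 12.5% to 14.6% of TPM in clone 2 and 12.9% to 14.6% in clone 3. The 13 primitive streak genes (median 0.27) had 1 at an unadjusted p under 0.05 and 2 past each of DESeq2 and limma, the 15 endothelial and blood genes (median 0.41) 2, 1 and 2, and the 12 muscle and heart genes (median 0.60) 2, 0 and 0. Of 27 HOX genes tested 24 were under 1 TPM in both lines, and 8 were at an unadjusted p under 0.05, 2 past DESeq2 and 1 past limma. The fit of the 8 libraries, with 2561 of 13672 genes past it, called members of most of these lists. They were 7 ribosomal protein, 5 oxidative phosphorylation, 2 primitive streak, 3 endothelial and blood, 4 muscle and heart and 0 HOX genes. Over the 37 lists 836 different genes were tested and 72 passed, beside 4.22% of all genes tested. The count was 47 and 40 without clone 2 replicate 1 or 3, 46 without clone 3 replicate 3, 125 by DESeq2 and 215 in the fit of the 8 libraries.

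Clone 1 (n = 3, label EP1 with c4 p11) served as a reference level that entered neither side. Of the 302 genes higher in clone 2, its level was nearer clone 2 for 143 and nearer clone 3 for 159. Of the 316 genes lower in clone 2, it was nearer clone 2 for 149 and nearer clone 3 for 167. Of the 34 genes at least 4-fold lower in clone 2 it was nearer clone 3 for 29, and of the 55 at least 4-fold higher nearer clone 2 for 32.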

How the data were processed

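Per the labels' protocols, a QIAGEN column kit gave the RNA and a ligation-mediated method the cDNA libraries. No source used here states the strand setting, so overlapping, antisense and near-identical genes may share reads. The submitters' processing notes name Bowtie 1.2.3, RSEM 1.2.3, bcl2fastq and, as genome build, Sscrofa11.1. Expected counts per gene, in part estimated by RSEM, were deposited by the authors. The authors also deposited TPM, which are corrected for gene length and sum to the same total per library.

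Expected counts were rounded to whole numbers and fitted in R 4.3.3 with edgeR 4.0.16 (TMM, filterByExpr with minimum count 10, quasi-likelihood test). One fit held the 15 libraries of fibroblasts and clones 1 to 3, with the contrast clone 2 minus clone 3. P-values were adjusted by Benjamini-Hochberg across the 14660 genes in the fit, with a threshold of 0.05. The value after ± is the SD for TPM and the SE for a log2 fold change, the latter taken as its size divided by the square root of F. TPM entered no main test. Depth differed by library, and low genes are measured less precisely in the shallower libraries. Positions come from RefSeq for the same build, in which 20596 symbols had 1 entry each.

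The comparison, gene lists and naming rule were chosen with earlier results of these data known. Named were the genes changed most with at least 10 TPM and no overlap (15 per direction), up to 4 per list past the test, those with the largest TPM difference (6 per direction), those near 0 in 1 line, 8 marker genes and 4 genes of chromosome 17, of which part is printed. Genes named beyond it were chosen after their values were seen. Alternatives were DESeq2 1.42.0, scaling by RLE, leaving out the filter, requiring 2-fold, fits on 8 or 11 libraries, the replicate number as a block, clone 3 replicates 2 and 3 summed, counts thinned to the lowest total, limma 3.58.1 on log2(TPM + 1) or log2(TPM + 0.1), and leaving out each library.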

Additional observations from a re-analysis of the deposited data

Results flagged for a closer look

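Among 196 groups of 4 values looked at, 21 had a highest or lowest library whose gap to the next exceeded Dixon's 95% critical value for 4 values, and chance flags about 1 in 20 groups. In clone 2 the highest library stood apart for FAM83F (0.09 TPM, next 0.03), FST (393.8 TPM, next 316) and FOXA1 (4.66 TPM, next 3.41). The lowest clone 2 library stood apart for LGR5 (2.24 TPM), LFNG (8.83 TPM), PSAT1 (9.35 TPM) and JARID2 (60.7 TPM). In clone 3 the highest library stood apart for TCEAL2 (0.96 TPM), LGR4 (14.3 TPM), PSAT1 (24.3 TPM), STARD4 (4.89 TPM), INSIG1 (84.2 TPM), DOK5 (56.8 TPM) and JARID2 (103.5 TPM). The lowest clone 3 library stood apart for FAM83F (5.18 TPM), FOS (1.15 TPM), LGR5 (0.46 TPM), SLC1A4 (4.40 TPM) and PCNA (332.5 TPM, next 492). The share of TPM in the 20 most abundant genes had a lone lowest library in each line, at 12.4% in clone 2 and 14.1% in clone 3.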

How the results depend on the processing

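Of 86 named genes past the test, 48 passed in the same direction under all 18 alternatives run on single genes, and NANOG and CDH1, which did not pass, were the genes that changed sign. NANOG turned to 0.018 under both TPM settings. CDH1 turned to 0.12 under both and ranged from -0.12 to 0.010 without single libraries, above 0 without clone 2 replicate 4 or clone 3 replicate 1. DESeq2 called 1243 genes (604 higher, 639 lower in clone 2, 1091 off chromosome 17, 125 list members). The fit on the 8 libraries called 2561 (1270, 1291, 2341 and 215, with 210 lower on chromosome 17), and that on 11 libraries 1429 (629, 800, 1267 and 145, with 157). With clone 3 replicates 2 and 3 summed 355 passed (179, 176 and 289). By limma on log2(TPM + 1) 1052 passed (846, 206, 977 and 110), and on log2(TPM + 0.1) 602 were higher and 144 lower, 49 of these on chromosome 17, whose median was -0.26 and -0.32. On log2(TPM + 1) the named genes IMPACT, TDRD12, WNT5A, COL3A1, GPT2, SLC1A4, SLC7A1, INSIG1, PCNA, MYBL2, DDX58, NCL and ACTB did not pass, and APOA1 did not pass DESeq2. A minimum of 2-fold left 280 (194 and 86), and a minimum of 2 TPM for genes near 0 in the other line gave 14 in place of 3. A stricter minimum fold can only remove calls and a lower minimum TPM can only add genes, by construction, and the cause of the other changes was not tested.

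Without single libraries the count ran from 330 to 549, higher from 178 to 269, lower from 148 to 280, off chromosome 17 from 272 to 471, lower on chromosome 17 from 57 to 77 and list members from 40 to 59. No pairing by replicate number was seen in the deviations of the libraries from the mean of their line. The deviations of same-numbered libraries correlated at 0.17, -0.04, -0.21 and -0.33, and 1 of 4 was closest to its own number. These values cannot tell whether same-numbered libraries were handled together. Replicate 4 of each line lay nearest the other line on the first principal component, so these deviations had opposite signs there. With the replicate number as a block the 8 libraries gave 1884 calls (986 higher, 898 lower, 1688 off chromosome 17, 189 lower on it, 170 list members).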
